A study of Mus musculus with 6 samples.

Results

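Cxcr3, Coro1a, Rac2, Was and Arhgdib are genes that leukocytes use to sense chemokines and to rearrange their actin cytoskeleton. They were found by gene name in the authors' deposited lists of genes that differed between WT.GFP+ and ERα-/-.GFP+ mammary epithelial cells (MECs), and all 5 were among the 651 listed genes. WT.GFP+ MECs carry an intact oestrogen receptor α (ERα), and ERα-/-.GFP+ MECs lack it. Both carry GFP driven by an actin promoter and come from C57Bl6 donors, a transgene that is not restricted to epithelium, so that GFP does not separate epithelial cells from other cells of the donor. MECs of either genotype were placed by intraductal injection in opposite glands of NOD scid gamma (NSG) mice, hosts that lack mature T, B and NK cells but keep myeloid cells. RNA of GFP+ cells sorted from the pregnant hosts was sequenced for 3 samples of each genotype. Glands were pooled for cell suspensions in the flow cytometry methods, which also list an antibody to the leukocyte marker CD45; its use in these sorts, the number of animals per sample and their age are not given in the sources used here.

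As background, CXCR3 is a chemokine receptor of activated T and NK cells that binds CXCL9, CXCL10 and CXCL11. Chemokine receptors signal through G proteins to small GTPases that control actin. Rac2 is the Rac GTPase of blood cells, and the GDP-dissociation inhibitor encoded by Arhgdib holds such GTPases inactive in the cytosol. Was encodes WASP, the protein lost in Wiskott-Aldrich syndrome, which activates the Arp2/3 complex to nucleate branched actin. Coronin 1A, encoded by Coro1a, binds actin filaments and the Arp2/3 complex and is needed for T-cell survival and migration. These genes are known for haematopoietic cells and are not markers of mammary epithelium.

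All 5 genes were higher in ERα-/-.GFP+ than in WT.GFP+ samples, by 2.02-fold to 2.27-fold, in a comparison where 13.1% of the listed genes were higher. The lists hold genes past the authors' fold and FDR thresholds only, so every listed gene had to change, and the direction of these 5 genes was known when they were chosen. The groups appear in the files only as numbered selections, whose genotype was taken from the direction that the paper gives for most listed genes. Esr1, the gene deleted in ERα-/- donors, is in neither list, and no label checked the assignment here. With this assignment 11 basal epithelial markers, Krt5 and Krt14 among them, were lower and 8 T-cell markers higher. The paper reports decreased keratinisation and upregulated genes of T-cell immunity without ERα. A reversed assignment would turn every direction given here. In bulk RNA, more cells of a type and more RNA per cell cannot be told apart.

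The lists give the mean raw read count and the mean log2 CPM (counts scaled to the library size) of each genotype, and the values of single samples were not analysed here. Both means together still limit the values of single samples. The mean count gives the sum of the 3 samples and the mean log2 CPM gives their product, once the library sizes are known. Genes with 1 or 2 reads in a genotype gave sizes of 24823902, 26923757 and 32600039 reads for the ERα-/-.GFP+ libraries, each from 3 genes. For WT.GFP+ they gave 26062038 and 26989204 reads, each from 1 gene only, and the remaining library then had 27114597 reads. Which library belongs to which sample is not known. Of 26 means of 2 to 6 reads, 26 could be written as whole reads in these libraries within 0.0002 on the log2 scale. Of these means 24 were of ERα-/-.GFP+ and only 2 of WT.GFP+, so the WT.GFP+ sizes were little checked. Genes with 2 reads could also be among those that gave the sizes. For each gene the lowest and the highest value that any sample could have was derived, and with it the range of the SD of log2 CPM. Standard errors of a difference were taken from this SD, pooled over the genotypes, as for unpaired samples. Since the genotypes were injected in opposite glands, a paired error could lie outside the ranges given. Groups are called apart where no arrangement of the samples that these sizes and an inferred prior count allow makes them overlap.

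Cxcr3 was the only one of the 5 genes that encodes a receptor. Its difference of mean log2 CPM was the highest of the 5, but Was was higher by the log2 ratio of mean counts. With the recovered library sizes that ratio was 1.17 for Was against 1.16 for Cxcr3. The mean log2 CPM of Cxcr3 was 5.23 in WT.GFP+ against 6.41 in ERα-/-.GFP+ samples. This is a difference of 1.18 with a standard error between 0.19 and 0.35 (n = 3 per genotype). The authors' mean counts were 1023 and 2404 reads. No WT.GFP+ sample could exceed 50.9 CPM and no ERα-/-.GFP+ sample could lie below 59.4 CPM, so the genotypes were apart. Its WT.GFP+ samples were the least even of the 5 genes, with an SD between 0.33 and 0.39. The gene lies on chromosome X of GRCm38 (mm10) from 101731535 to 101734269 on the minus strand, with 1 annotated transcript.

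Rac2 had the highest mean counts of the 5 genes, 13229 reads in WT.GFP+ against 29059 in ERα-/-.GFP+ samples. Its mean log2 CPM rose from 8.94 to 10.00, a difference of 1.05 with a standard error between 0.12 and 0.34. The WT.GFP+ samples lay between 416 and 586 CPM and the ERα-/-.GFP+ samples between 665 and 1496 CPM, which left the genotypes apart. Rac2 lies on chromosome 15 from 78559167 to 78572783 on the minus strand. Of the 3101 windows of 85 bases in its transcripts, 0 occur in transcripts of another gene, Rac1 and Rac3 included, so that perfectly matching reads could not be split with these paralogs. The same count was 0 for the other 4 genes.

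Arhgdib, the GDP-dissociation inhibitor of small GTPases in leukocytes, had the lowest difference of mean log2 CPM of the 5 genes. By the log2 ratio of mean counts Rac2 was lowest, at 1.06 against 1.08 for Arhgdib with the recovered library sizes. The mean log2 CPM of Arhgdib was 8.44 in WT.GFP+ against 9.45 in ERα-/-.GFP+ samples. This is a difference of 1.01 with a standard error between 0.21 and 0.47. The mean counts were 9281 and 20623 reads. It was also the only one of the 5 genes whose genotypes could overlap: a WT.GFP+ sample could reach 381 CPM and an ERα-/-.GFP+ sample could be as low as 368 CPM. Its WT.GFP+ samples were close together, with an SD of at most 0.12, while its ERα-/-.GFP+ samples had an SD of at least 0.36 and differed from each other by at least 1.55-fold. Arhgdib lies on chromosome 6 from 136923655 to 136941899 on the minus strand. Of its exon bases, 7.97% overlap exons of Pde6h on the opposite strand, and since the library kits do not mark strand, reads there cannot be told apart between the genes.

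Was had the lowest counts of the 5 genes, with means of 542 reads in WT.GFP+ against 1284 in ERα-/-.GFP+ samples. Its mean log2 CPM rose from 4.34 to 5.48, a difference of 1.15 with a standard error between 0.13 and 0.37. Every possible WT.GFP+ value lay between 18.0 and 22.9 CPM, below the lowest possible ERα-/-.GFP+ value of 27.3 CPM. The SD of its ERα-/-.GFP+ samples, at least 0.20, exceeded that of its WT.GFP+ samples, at most 0.15. Was lies on chromosome X from 8081453 to 8090498 on the minus strand.

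Coro1a rose from a mean of 12158 to 27905 reads, or from 8.83 to 9.93 in mean log2 CPM. The difference was 1.11 with a standard error between 0.12 and 0.36. The WT.GFP+ samples could not exceed 520 CPM and the ERα-/-.GFP+ samples could not fall below 611 CPM. Coro1a lies on chromosome 7 from 126699773 to 126707787 on the minus strand. Exons of Bola2 on the opposite strand cover 26 of its 2783 exon bases.

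**Figure D1:**
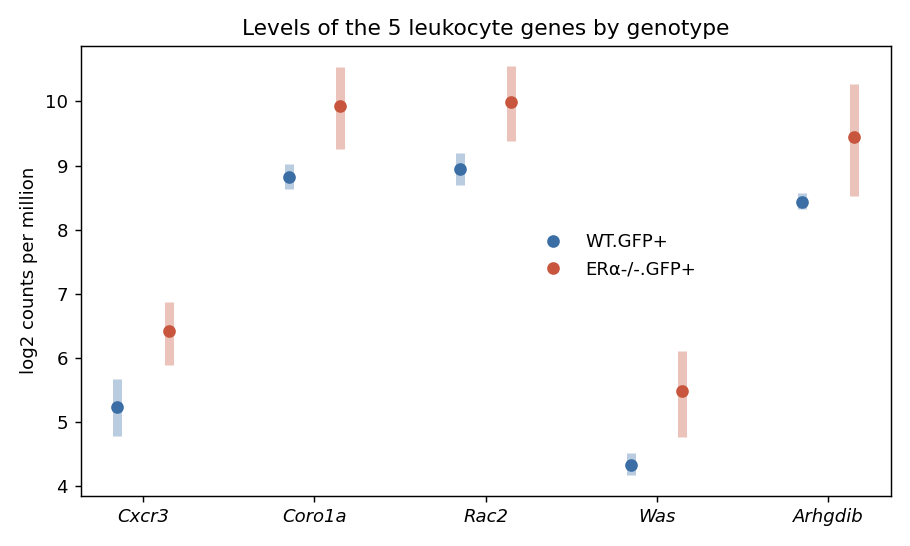
Mean log2 CPM of Cxcr3, Coro1a, Rac2, Was and Arhgdib in WT.GFP+ (blue) and ERα-/-.GFP+ (red) samples, 3 each; points are the authors' means and the pale bars span every value that a single sample could have given both deposited means. The bars of the genotypes do not meet for 4 genes and overlap between 368 and 381 CPM for Arhgdib.

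In sum 4 of the 5 genes were apart between the genotypes in every possible arrangement. The same was so for 77.6% of the 85 listed genes higher in ERα-/-.GFP+ samples and for 81.9% of all listed genes, so this count lies near its background. Counting error alone was expressed as an interval on the ratio of summed reads, and was not compared with the spread between samples for each gene. For Was, the least counted of the 5 genes, the ratio of ERα-/-.GFP+ to WT.GFP+ reads scaled for library size was 2.25, with an exact binomial 95% interval from 2.12 to 2.39. For Coro1a it was 2.18, from 2.15 to 2.21. These intervals cover counting error only, and PCR copies are not independent molecules.

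Regulatory sequence is shown because the 5 genes are expressed together in leukocytes, and shared regulation was not tested. RefSeq promoter windows (GRCm38.p6) of the 250 bases before a start site were present for Cxcr3, Coro1a, Was and Arhgdib, 7 windows in all, but not for Rac2. They were searched on both strands for AGGAAG, a core that ETS factors of blood cells bind, for TGTGGT, a core of RUNX factors, and for GGTCA and TGACC separated by any 3 bases, the palindrome of an oestrogen response element. The ETS letters were in 4 of the 7 windows and in 29.5% of all 32851 windows. Each of the 4 genes had a window with these letters, but Coro1a and Arhgdib had several windows each. The share of all genes with such a window was not computed, so the count of genes has no background here. The RUNX letters were in 2 of the 7 windows, those of Cxcr3 and Was, and in 14.0% of all windows. The oestrogen response element letters were in 0 of the 7 and in 0.1% of all windows. A match of letters is not a binding site. Below, the part outside GENCODE exons is given for the window of each gene that holds the ETS letters, 5′ to 3′ on the minus strand, with ETS and RUNX letters or their reverse complement in capitals.

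Cxcr3, chrX:101734270-101734397: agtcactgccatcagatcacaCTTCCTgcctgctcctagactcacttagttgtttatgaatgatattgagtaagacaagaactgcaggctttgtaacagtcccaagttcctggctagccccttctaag

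Was, chrX:8090499-8090741: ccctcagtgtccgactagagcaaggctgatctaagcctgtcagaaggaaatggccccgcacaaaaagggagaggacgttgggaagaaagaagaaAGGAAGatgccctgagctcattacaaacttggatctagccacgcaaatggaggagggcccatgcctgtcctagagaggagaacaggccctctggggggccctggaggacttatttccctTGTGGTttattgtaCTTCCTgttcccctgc

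Coro1a, chr7:126704221-126704427: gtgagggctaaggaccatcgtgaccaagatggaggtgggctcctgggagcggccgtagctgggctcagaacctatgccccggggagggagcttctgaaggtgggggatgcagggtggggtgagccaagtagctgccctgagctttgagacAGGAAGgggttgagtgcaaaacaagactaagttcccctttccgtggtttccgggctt

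Arhgdib, chr6:136941504-136941650: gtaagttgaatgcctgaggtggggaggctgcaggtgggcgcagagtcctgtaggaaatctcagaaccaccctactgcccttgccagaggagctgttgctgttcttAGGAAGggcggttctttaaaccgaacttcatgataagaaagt

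In these stretches the Was promoter holds an ETS core on each side of the RUNX core, whereas those of Coro1a and Arhgdib each hold 1 ETS core. The Cxcr3 stretch keeps its distal ETS core, and its RUNX core and proximal ETS core lie in exon sequence that is not printed. The whole Arhgdib window holds 3 ETS matches, of which the other 2, which overlap each other, also lie in unprinted exon sequence.

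Levels were compared between the genes per kilobase of the longest transcript. On the scale of CPM per kilobase, Arhgdib had the highest level in WT.GFP+ samples at 291, followed by Coro1a at 260, Rac2 at 162, Cxcr3 at 21.7 and Was at 9.57. The order was the same in ERα-/-.GFP+ samples, at 587, 559, 336, 49.2 and 21.2 CPM per kilobase. Arhgdib and Coro1a did not differ beyond the possible values of their samples in either genotype. Coro1a and Rac2 were apart in WT.GFP+ samples, where a Coro1a sample could not fall below 228 and a Rac2 sample could not exceed 193 CPM per kilobase, but not in ERα-/-.GFP+ samples. Rac2 was above Cxcr3, and Cxcr3 above Was, in every possible arrangement of either genotype.

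The 5 genes kept nearly the same proportions to each other in both genotypes. Their mean counts summed to 36233 reads in WT.GFP+ against 81274 in ERα-/-.GFP+ samples, or to 0.136% and 0.289% of all reads. Rac2 took 36.5% of this sum in WT.GFP+ against 35.8% in ERα-/-.GFP+ samples, and Coro1a took 33.6% and 34.3%. Arhgdib took 25.6% and 25.4%, Cxcr3 2.82% and 2.96%, and Was 1.49% and 1.58%. The differences of the 5 genes spanned 1.01 to 1.18 on the log2 scale. This span is smaller than the highest possible unpaired standard error of each gene. It is larger than the lowest possible one of Coro1a, Rac2 and Was. These errors are for genotypes and not for a difference between genes of the same samples, so likeness of the 5 genes was not tested. The 85 listed higher genes had quartiles of 1.04 and 1.18, so similar differences are not particular to these 5 genes.

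**Figure D2:**
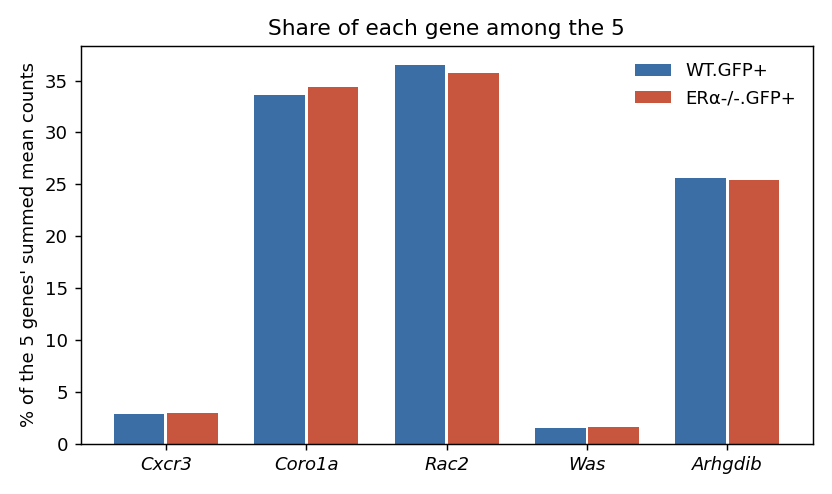
Share of each gene, in percent, in the summed mean counts of the 5 genes in WT.GFP+ (blue) and ERα-/-.GFP+ (red) samples. Rac2, Coro1a and Arhgdib make up nearly all of the sum, and no share differs by more than 1 percentage point between the genotypes.

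The median difference of the 5 genes was 1.11 on the log2 scale. Over the 85 listed genes higher in ERα-/-.GFP+ samples it was 1.08, with quartiles of 1.04 and 1.18, and over all 651 listed genes it was −1.65. Among the 85 higher genes, Cxcr3 was at position 21 by difference, Was at 26, Coro1a at 37, Rac2 at 55 and Arhgdib at 75. By mean log2 CPM in ERα-/-.GFP+ samples Rac2 was at position 4, Coro1a at 5 and Arhgdib at 7, while Cxcr3 was at 48 and Was at 66. Rac2, Coro1a and Arhgdib were thus among the most counted of the higher genes and near their middle or below by difference. Was, also an actin regulator, went the other way, with a lower level and a higher position by difference.

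**Figure D3:**
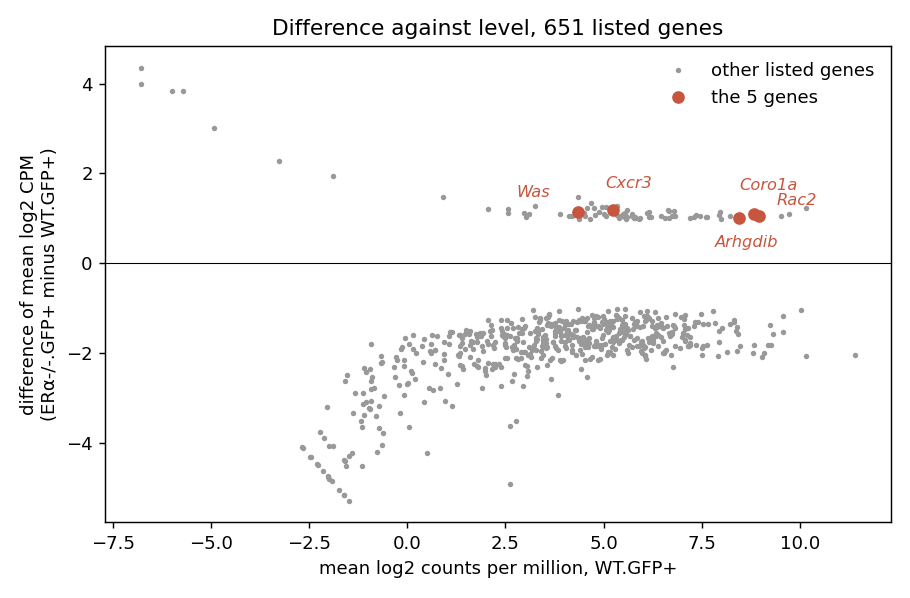
Difference of mean log2 CPM (ERα-/-.GFP+ minus WT.GFP+) against the mean log2 CPM of WT.GFP+ for the 651 listed genes (grey), with the 5 leukocyte genes in red. The 5 genes lie between 1.01 and 1.18, inside the band of the other higher genes, and no gene lies near 0 because only genes past the authors' thresholds were listed.

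Ackr4, a scavenging receptor that clears chemokines and does not couple to G proteins, was listed as lower, unlike Cxcr3, from 430.0 to 107 reads with a difference of −2.15. Of 32 chemokine ligands, the CXCR3 ligands Cxcl9, Cxcl10 and Cxcl11 among them, 0 were listed. A gene in neither list may have changed less, may not have passed the FDR threshold or may have been left out for low expression, so absence shows no lack of change.

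In a list of 17 activators and effectors of Rac in leukocytes, Ncf4 alone was listed. It encodes a cytosolic subunit of the phagocyte NADPH oxidase, the enzyme that Rac2 switches on, and it was higher with mean counts of 1017 and 2301 reads and a difference of 1.12. Vav1 and Dock2, exchange factors that load Rac with GTP, were in neither list.

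Of the actin machinery, Coro1a was the 1 of 7 coronins and Was the 1 of 16 genes of the WASP family and its partners that was listed. Wipf1, whose product protects WASP from degradation, was in neither list. Of the 10 Arp2/3 subunits, through which both coronin 1A and WASP act, 0 were listed. In a list of 20 other leukocyte actin regulators, Hcls1, which binds Arp2/3 downstream of antigen receptors, was the 1 listed gene, with mean counts of 1502 and 3240 reads and a difference of 1.01. In the plot of related lists Hcls1 lay on the higher side, as did Coro1a and Was, whose direction was known when they were chosen.

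**Figure D4:**
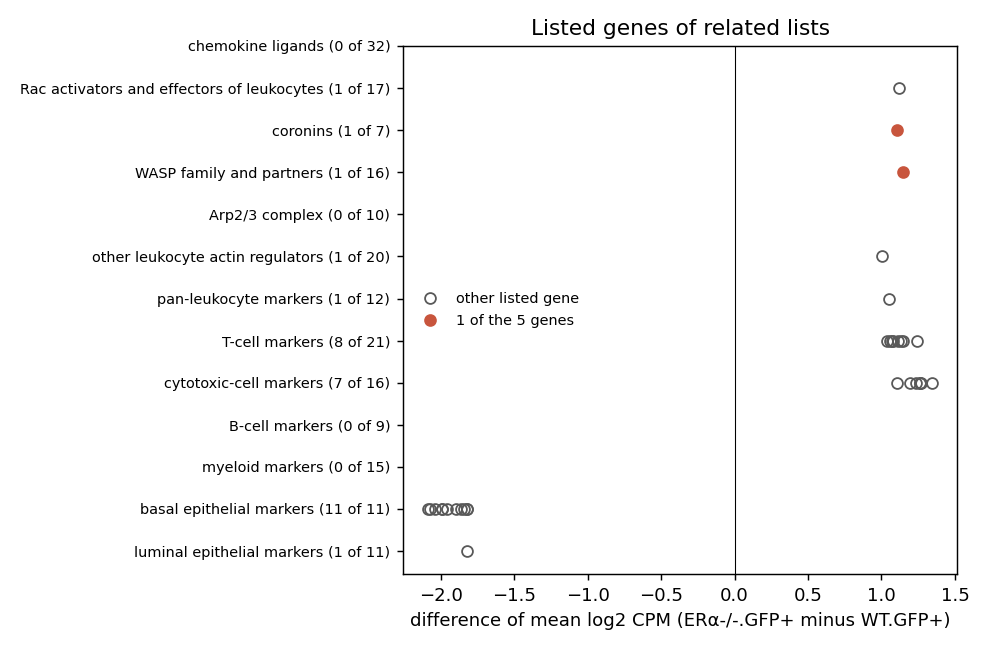
Difference of mean log2 CPM (ERα-/-.GFP+ minus WT.GFP+) for each listed gene of related lists; the label gives how many genes of each list were in the deposited lists, filled points are Coro1a and Was and open points other listed genes. Listed T-cell and cytotoxic-cell markers lie near Coro1a and Was, and the 11 basal epithelial markers lie between −2.09 and −1.82.

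Listed markers of T cells and cytotoxic cells were higher, as the 5 genes were. The marker lists were chosen with earlier results of these data known. Of all 651 listed genes, 85 were higher and 566 lower. Of 21 T-cell markers, 8 were listed, each as higher, with a median difference of 1.10 and a summed level of 980 CPM in WT.GFP+ against 2106 in ERα-/-.GFP+ samples. Of 16 cytotoxic-cell markers, 7 were listed, each as higher, with a median difference of 1.26 and a summed level of 2275 and 5341 CPM. Of 12 pan-leukocyte markers, 1 was listed, Lsp1, itself an actin-binding protein and higher, with mean counts of 4710 and 10374 reads. Of 9 B-cell and 15 myeloid markers, 0 were listed, and their levels were not analysed here. All 11 basal epithelial markers were listed as lower, from a summed 6847 to 1844 CPM, and of 11 luminal markers only Pgr, the progesterone receptor gene, was listed, as lower with a difference of −1.82. Cd3e, Cd4, Cd8a and Ptprc, which define T cells and leukocytes, were in neither list, and each listed T-cell marker had a mean count of at least 637 reads in either genotype. The part of other cell types in the differences of the 5 genes was not tested.

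For each gene the 3 listed genes outside the 5 with the closest pair of mean log2 CPM values were named, which uses only 2 group means and leaves the 5 genes themselves out of the search. Nearest to Cxcr3 were Ncf4, Epsti1 and Serpinb9b, at distances of 0.064, 0.099 and 0.153 on the log2 scale. Nearest to Was were Gprin3, Gna15 and Map4k1, at 0.135, 0.185 and 0.207. Arhgdib lay at 0.036 from Ms4a4b, which had 9142 reads in WT.GFP+ against 20526 in ERα-/-.GFP+ samples, and then came Sla and Trbc1. Ms4a4b, Sla and AW112010 were nearest to Coro1a, at 0.614 or more, and the same 3 genes were nearest to Rac2, at 0.743 or more, while Coro1a and Rac2 lay closer to each other than to any of these 3.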

How the data were processed

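RNA of GFP+ cells from 3 WT.GFP+ and 3 ERα-/-.GFP+ samples was measured by RNA sequencing. The authors aligned single-end reads of 85 nt to mm10 with HTSstation, kept the top expressed genes in ASAP, compared the genotypes with edgeR and deposited the genes past their thresholds. The authors' deposited mean count, treated here as a score because it is an average and not a count, is the mean of the raw counts of 3 samples. Their deposited normalised values are means of log2 CPM. The lists also hold the authors' fold changes, p-values and FDR, which were not used. The authors' counter and annotation are not given in the sources used here.

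Differences were taken as ERα-/-.GFP+ minus WT.GFP+ mean log2 CPM, and no test was run, since this needs values per sample. A gene with 0 reads had a log2 CPM of −6.7771, which for a prior count of 0.25 gives a mean library of 27418923 reads. The prior count was inferred from the values. Library sizes and the ranges of single-sample values followed from this, a step chosen after the data had been seen. On simulated libraries, true values lay within the ranges for 1016 of 1016 groups of 3. The simulation used the same prior count and the true library sizes, and groups with a low count were left out. It thus checks the calculation and cannot check the inferred prior count or the library sizes recovered here. Positions and lengths came from GENCODE M21 (GRCm38), found for 650 of 651 Ensembl identifiers. Tools were scipy 1.17.1, matplotlib 3.10.9, pandas 2.3.3 and numpy 2.4.6 under Python 3.11.15. The genes, lists and rules for naming genes (the 5 genes, listed genes of the lists, and the 3 nearest genes outside the 5) were chosen with earlier results of these data known. Some results of the chemokine receptor and GTPase lists are not reported here. Alternatives were other scalings of the mean counts, omission of each gene and another transcript length.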

Additional observations from a re-analysis of the deposited data

How the results depend on the processing

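All 5 genes were higher in ERα-/-.GFP+ samples under each of the 5 other scalings tried, and their median difference lay between 1.08 and 1.20 over those scalings and the omission of each gene in turn, against 1.11 as reported. The difference of a single gene moved by at most 0.14 on the log2 scale, for Arhgdib with unscaled mean counts, where it was 1.15. The 5 scalings all take the ratio of mean counts and differ by a factor common to all genes, or by a pseudocount of 1. They therefore had to give nearly the same order and are not independent checks. By that ratio the order of the 5 genes turned, with Was above Cxcr3 and Arhgdib above Rac2. The scaling by the recovered library sizes was chosen after the data had been seen. With the length of all exons merged in place of the longest transcript, the order of the 5 genes by CPM per kilobase was the same, but the level of Coro1a in WT.GFP+ samples was 163 in place of 260 and that of Arhgdib 203 in place of 291. Coro1a was then level with Rac2 at 159, so that the gap between them rests on the transcript length used. Fits without each replicate, with another normalization or with a block for pairs were not run, because they need values per sample. Depth did not limit the 5 genes, whose means were at least 542 reads. The direction of all differences rests on the assignment of the selections to genotypes.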

Other observations

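The deposited means also show how unequal the samples of a genotype were. The log2 of the mean count exceeds the mean log2 count by more the more the 3 samples differ. Over listed genes whose mean count reached 100, the median of this excess was 0.0288 in WT.GFP+ (508 genes) against 0.0888 in ERα-/-.GFP+ samples (404 genes). For Arhgdib it was 0.0015 in WT.GFP+ against 0.0775 in ERα-/-.GFP+ samples. For Was it was 0.0034 and 0.0386, for Coro1a 0.0044 and 0.0333, and for Rac2 0.0081 and 0.0257. Cxcr3 went the other way, with 0.0293 in WT.GFP+ and 0.0145 in ERα-/-.GFP+ samples. The largest recovered library was 1.31 times the smallest among the ERα-/-.GFP+ samples and 1.04 times among the WT.GFP+ samples, and the part of these sizes in the excess was not tested.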
